A study of Mus musculus with 6 samples.

Results

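Activin and inhibin signalling was followed in fetal mouse ovaries through 9 genes, Inha, Inhba, Inhbb, Acvr1b, Acvr2a, Acvr2b, Tgfbr3, Smad2 and Smad3. Every probe set whose platform annotation named exactly 1 of these genes was taken, which gave 19 of 45037 probe sets on the array and 9 of 18193 named genes. Ovaries had been dissected at E15.5, a stage when fetal germ cells are in meiotic prophase, from a Dmrt1 knockout, described in the series as a conditional removal of Dmrt1, and from wild type, with 3 Affymetrix arrays of total RNA in each group. Per the labels' protocols the tissue was stored in an RNA stabilising solution and the RNA was extracted with a column kit. The driver of the conditional removal, the strain, the number of animals behind an array and any pooling are not given in the sources used here, so the p-values here cover only the spread among these arrays, part or all of which may be technical.

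Activins are dimers of inhibin beta subunits, encoded by Inhba and Inhbb, and inhibins pair a beta subunit with the alpha subunit encoded by Inha. Activin binds a type II receptor (Acvr2a or Acvr2b), which recruits and activates a type I receptor such as Acvr1b, and the type I receptor phosphorylates Smad2 and Smad3, which enter the nucleus with Smad4. Inhibin blocks the type II receptors with the help of betaglycan, the product of Tgfbr3, and follistatin (Fst) binds activin directly. In the mouse fetal ovary the restraint of activin B is known to be needed for an ovarian vessel pattern and for the survival of germ cells, and in the fetal testis activin A from Leydig cells is known to drive the proliferation of Sertoli cells.

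Each array gives a linear intensity for each probe set. Comparisons used log2 of it, and testing was limited to probe sets at log2 4 (intensity 16) or more on 3 or more of the 6 arrays. Arrays of a group correlated at 0.985 to 0.993 on the log2 scale and arrays of different groups at 0.973 to 0.980, and array medians were 13.15 to 13.4 in knockout, against 14.37 to 14.74 in wild type. The probe set of Dmrt1 itself lay under the filter level on every array (5.97 to 8.55 in knockout, 8.47 to 13.02 in wild type). Its position with respect to the deletion is not given in the sources used here, so it does not check the labels. Xist, the RNA that coats the inactive X chromosome of female cells, averaged log2 1.81 on knockout replicate 1 alone, against 9.75 and 9.85 on the other knockout arrays and 10.68 to 10.91 on the wild-type arrays, and results are therefore also given without that array. The tissue showed the pregranulosa marker Foxl2 (129 to 301 in knockout, 227 to 255 in wild type). It also showed Ddx4, a marker of germ cells rather than of the ovary (1305 to 2091 in knockout, 1161 to 1291 in wild type). The Sertoli cell hormone gene Amh read 4.13 to 4.50 in knockout, against 4.0 to 4.39 in wild type.

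Of the 9 genes, Inhba and Tgfbr3 fell in the knockout ovaries and none rose, while 7 did not pass the test. By the brightest probe set of each gene and limma's test with Benjamini-Hochberg adjustment, 2 of 9 were called lower, against 2.27% of all 11897 genes tested, and 0 of 9 higher, against 1.28%. A gene was called at an adjusted p under 0.05 over all 22040 probe sets tested. The median difference over the 9 genes was -0.14 log2 units, against 0.02 over all genes. Without knockout replicate 1, 1 of the 9 genes was called lower, against 1.41% of all genes, and the median was -0.16. All 9 genes had a tested probe set, and 11 of their 19 probe sets passed the filter. The other 8, which belong to 6 of the genes, read 3.15 to 8.70 on every array, and their differences were not tested.

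**Figure D1:**
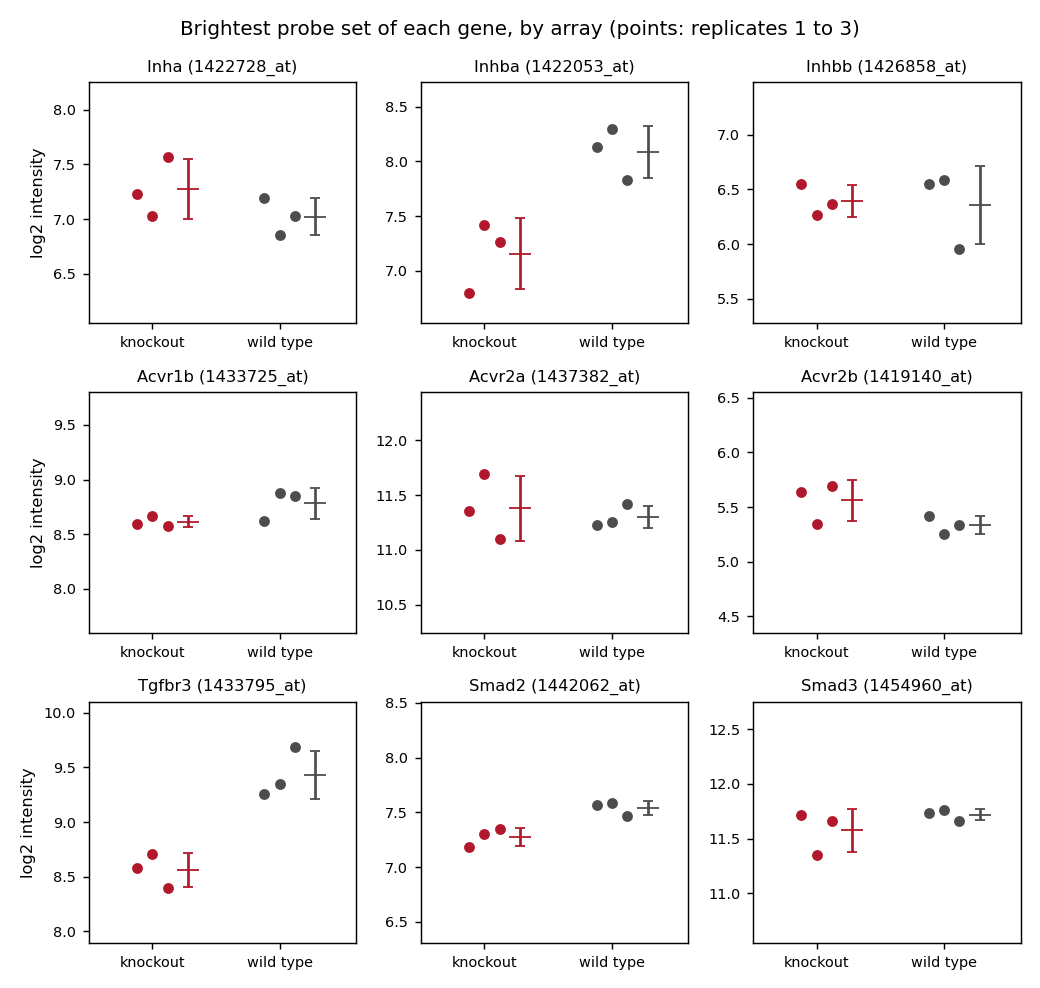
Log2 intensity of the brightest probe set of each of the 9 genes on the 3 knockout arrays (left, red) and the 3 wild-type arrays (right, grey), with the group mean and SD beside the points; every panel spans the same number of log2 units. The knockout arrays lie below all wild-type arrays for Inhba, Tgfbr3 and Smad2, and the groups overlap in the other panels.

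Among the ligand subunits, Inhba, which encodes the beta A subunit of activin A and inhibin A, fell. Its probe set 1422053_at read 111, 171 and 153 on the knockout arrays, in the order of replicates 1 to 3, against 279.7, 315 and 228 on the wild-type arrays in that order. The highest knockout array lay under the lowest wild-type array, and knockout replicate 1 was the lowest of all. Mean log2 values were 7.16 ± 0.32 in knockout and 8.09 ± 0.24 in wild type (SD, n = 3 each), a log2 difference of -0.93 ± 0.20 (SE, limma adjusted p = 0.023), which puts the knockout at 52.6% of the wild-type level (95% interval 38.4% to 71.9%). Without knockout replicate 1 the difference was -0.75 ± 0.19 and the call ended (limma adjusted p = 0.0625). The call also ended when wild-type replicate 1 (-0.91, 0.0912) or wild-type replicate 2 (-0.82, 0.107) was left out. The other Inhba probe set, 1458291_at, was near the floor in both groups (3.28 to 3.97 in knockout, 3.15 to 3.77 in wild type) and carries no information on the change.

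The stretch of 250 bases before a start site that RefSeq gives for Inhba (chr13:16011601-16011850, GRCm38.p6, plus strand, 5′ to 3′) is shown because Inhba is the ligand gene that fell. In the same assembly the annotated gene begins farther upstream, so this window lies inside it, before 1 of its starts. Capitals mark a match to the TATA box letters TATAAA.
Inhba: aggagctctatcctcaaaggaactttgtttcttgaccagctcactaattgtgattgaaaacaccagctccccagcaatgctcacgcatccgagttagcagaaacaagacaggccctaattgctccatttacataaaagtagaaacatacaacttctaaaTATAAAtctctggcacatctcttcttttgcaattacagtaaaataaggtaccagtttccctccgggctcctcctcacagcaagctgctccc
The capitals start 91 bases before that start site, and 13.0% of 27025 promoter windows of the same length hold these letters on either strand. The letters ACANTGT, the core of the site bound by DM domain proteins such as DMRT1, occur in 6.55% of those windows, and in 0 of the 7 windows of member genes in the table. The SMAD box CAGAC occurs in 42.1% of the windows and in those of Inha, Acvr2a and Acvr2b, and TGACG, a part of the cyclic AMP response element, occurs in 17.9% and in none of the 7. Overlaps between motifs were allowed, and an absent match says only that the letters are not in this window.

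Inha, which encodes the alpha subunit specific to inhibins, read 149.9, 131 and 189 on the knockout arrays and 146, 116 and 130.2 on the wild-type arrays. Knockout replicate 3 was the highest array and the groups overlapped. The log2 difference was 0.25 ± 0.19 (SE, n = 3 in each group, limma adjusted p = 0.504), with a 95% interval of -0.17 to 0.67, so a fall of the size seen for Inhba lies outside it. Inhbb, which encodes the beta B subunit of activin B and inhibin B, read 93.8, 76.9 and 82.3 in knockout and 93.3, 96.2 and 61.8 in wild type. Wild-type replicate 3 was the lowest of the 6 arrays and the knockout arrays lay within the wild-type range. The difference was 0.03 ± 0.21 (limma adjusted p = 0.954), with a 95% interval of -0.43 to 0.50.

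Pairs of member genes were also compared within each array, which uses the same values again and adds no separate evidence for a fall. Log2 Inhba minus log2 Inhbb was 0.25, 1.15 and 0.90 on the knockout arrays and 1.58, 1.71 and 1.88 on the wild-type arrays. These groups did not overlap, and their means differed by -0.96. Log2 Inhba minus log2 Inha was -0.43, 0.38 and -0.30 in knockout and 0.94, 1.44 and 0.81 in wild type, again without overlap, and differed by -1.18. For Inha minus Inhbb the groups overlapped (0.68 to 1.2 in knockout, 0.27 to 1.07 in wild type). Over 8 such pairs of member genes, the 2-sided exact permutation p was 0.1 for each pair without overlap, the smallest that 3 against 3 arrays allow, and 0.16 after Benjamini-Hochberg adjustment, so no pair could pass. These are differences between probe sets, whose levels cannot be set against each other as amounts of RNA.

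**Figure D2:**
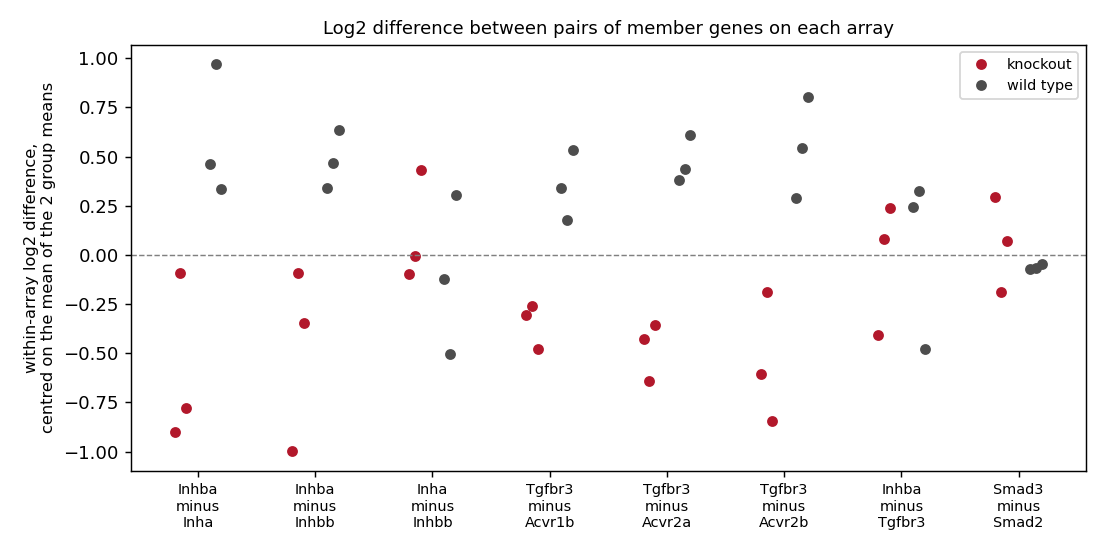
Within-array log2 difference between 8 pairs of member genes on the knockout arrays (red, left of each pair) and wild-type arrays (grey, right), with each pair centred on the mean of its group means. The groups separate for Inhba against Inha and Inhbb and for Tgfbr3 against the 3 receptor genes, and overlap for Inha minus Inhbb, Inhba minus Tgfbr3 and Smad3 minus Smad2.

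Among the receptors, Tgfbr3, the betaglycan gene, fell. Its probe set 1433795_at read 383, 418 and 337 on the knockout arrays, against 613, 652 and 822 on the wild-type arrays. All knockout arrays lay under the lowest wild-type array, and wild-type replicate 3 was the highest. Mean log2 values were 8.56 ± 0.16 in knockout and 9.43 ± 0.22 in wild type (SD, n = 3 each), a difference of -0.87 ± 0.16 (SE, limma adjusted p = 0.00847), which puts the knockout at 54.8% of the wild-type level (95% interval 43.0% to 69.8%). Without knockout replicate 1 the difference was -0.88 ± 0.18 (limma adjusted p = 0.0248), and the call held on leaving out each of the 6 arrays in turn, with adjusted p of 0.0125 to 0.0472. The second probe set, 1425620_at, was near the floor, at 3.39 to 4.34 in knockout, against 4.55 to 4.88 in wild type, and was not tested.

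The signalling receptors did not pass the test. Acvr1b, a type I receptor of activin, read 385, 407 and 382 in knockout and 394, 469 and 462 in wild type, with wild-type replicate 1 inside the knockout range. Its difference was -0.17 ± 0.14 (SE, n = 3 in each group, limma adjusted p = 0.542, 95% interval -0.48 to 0.14). Acvr2a, a type II receptor, read 2617, 3305 and 2193 in knockout and 2395, 2446 and 2738 in wild type. Knockout replicates 2 and 3 were the highest and lowest of the 6 arrays, and the difference was 0.08 ± 0.14 (limma adjusted p = 0.803, 95% interval -0.23 to 0.40). Its dimmer probe set, 1451004_at, read 23.65 to 25.9 in knockout, against 22.3 to 30.9 in wild type and differed by -0.07 ± 0.19 (limma adjusted p = 0.882). Acvr2b, the other type II receptor, read 49.8, 40.7 and 51.8 in knockout and 42.9, 38.25 and 40.3 in wild type. Knockout replicate 2 lay inside the wild-type range, and the difference was 0.22 ± 0.18 (limma adjusted p = 0.532, 95% interval -0.17 to 0.62).

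Within arrays, log2 Tgfbr3 minus log2 Acvr1b was -0.01, 0.04 and -0.18 in knockout and 0.64, 0.47 and 0.83 in wild type. Tgfbr3 minus Acvr2a and Tgfbr3 minus Acvr2b also separated the groups, by -0.95 and -1.09 between group means, with an exact permutation p of 0.1 for each, the smallest the design allows. Inhba minus Tgfbr3 differed by -0.06 between groups that overlapped (-1.78 to -1.14 in knockout, -1.85 to -1.05 in wild type).

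The genes of the receptor-regulated SMADs did not pass either. Smad2 is measured by a pair of probe sets above the filter. The brighter, 1442062_at, read 145, 157.5 and 163 in knockout and 189.6, 192 and 176 in wild type. The groups did not overlap, but the difference of -0.26 ± 0.15 did not pass (SE, n = 3 in each group, limma adjusted p = 0.367, 95% interval -0.60 to 0.07). The other, 1420634_a_at, whose name marks possible matches to several transcripts, read 169, 154 and 125 in knockout and 147, 177 and 139 in wild type, overlapped, and differed by -0.05 ± 0.18 (limma adjusted p = 0.909). Smad3 read 3373, 2614 and 3236 in knockout and 3413, 3466 and 3235 in wild type. Knockout replicate 2 was the lowest array, and the difference was -0.14 ± 0.11 (limma adjusted p = 0.518, 95% interval -0.38 to 0.10). Counting genes rather than probe sets, 3 of the 9 had knockout arrays wholly below wild-type arrays, namely Inhba, Tgfbr3 and Smad2, against 11.4% of all genes tested.

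**Figure D3:**
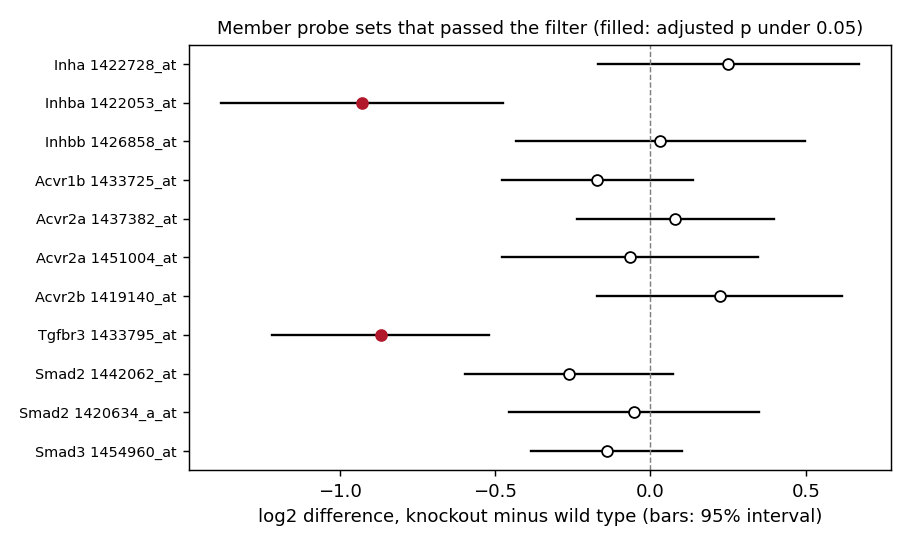
Log2 difference, knockout minus wild type, of the 11 tested probe sets of the member genes, with limma's 95% intervals. Filled points are Inhba at -0.93 and Tgfbr3 at -0.87, and the 9 open points lie between -0.26 and 0.25.

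The 9 probe sets that did not pass had 95% intervals reaching from -0.60 at the lowest to 0.67 at the highest. The estimates for Inhba (-0.93) and Tgfbr3 (-0.87) lie outside all of them, while smaller changes could not be told from the spread of 3 arrays. The intervals of Inhba (-1.38 to -0.48) and Tgfbr3 (-1.22 to -0.52) overlap some of them, such as that of Smad2 1442062_at (-0.60 to 0.07).

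Of 25 other genes of the pathway, listed from general knowledge, 24 were analysed and 17 tested. Of these, 0 rose, against 1.28% of all genes tested, 1 fell, against 2.27%, and 16 did not pass. Their median difference was -0.04, against 0.02 over all genes. The 3 of smallest p in this list, named for that rank alone, were Tgfbr2, Pcsk6 and Foxh1. Tgfbr2, the type II receptor of TGF-beta, read 777, 980.4 and 972 in knockout and 1199.97, 1296 and 1477 in wild type. All knockout arrays were lower, and it fell by 0.54 ± 0.14 (SE, n = 3 in each group, limma adjusted p = 0.0427). The call ended without knockout replicate 1 (-0.43, 0.119), without any 1 of the wild-type arrays (0.0779 to 0.188), with a filter at log2 6 (0.0582), with eBayes without a trend (0.0761), with the replicate number as a block (0.0794) and with median centring (0.106).

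The antagonist and the common partner did not pass. Fst, encoding follistatin, read 2029, 1818 and 1394 in knockout and 1425, 1509 and 1453 in wild type, with knockout replicate 3 the lowest array, and differed by 0.24 ± 0.14 (SE, n = 3 in each group, limma adjusted p = 0.376), or by 0.12 without knockout replicate 1 (0.697). Its second tested probe set differed by 0.52 ± 0.26 (limma adjusted p = 0.302). Smad4, the partner shared by all receptor-regulated SMADs, read 3631 to 3952 in knockout, against 3484 to 4047 in wild type and differed by 0.02 ± 0.09 (limma adjusted p = 0.92, 95% interval -0.17 to 0.22). Pcsk6, a proprotein convertase that cleaves TGF-beta family precursors, read 283, 203 and 324 in knockout and 107, 208 and 144 in wild type. Wild-type replicate 2 lay just above knockout replicate 2, and the difference of 0.85 ± 0.26 did not pass (limma adjusted p = 0.0878), except with median centring (0.0442), on leaving out replicate 2 of the knockout (0.0486) or of the wild type (0.0419). Foxh1, a DNA-binding partner of Smad2 and Smad3, read 83.8, 40.2 and 33.7 in knockout and 27.2, 30.7 and 32.3 in wild type and differed by 0.69 ± 0.30 (limma adjusted p = 0.232). Knockout replicate 1 was the highest array, and without it the difference was 0.29 (limma adjusted p = 0.477).

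Among 8 related ligand genes of the TGF-beta and BMP families, 5 were tested. By the brightest probe set, 0 rose, against 1.28% of all genes, and 1 fell, against 2.27%. Their median difference was -0.21. Tgfb2, which encodes TGF-beta 2, a high-affinity ligand of betaglycan, read 2060.03, 2504 and 2233 in knockout and 3106, 2869 and 2918 in wild type. All knockout arrays were lower, and its brightest probe set fell by 0.39 ± 0.10 (SE, n = 3 in each group, limma adjusted p = 0.0466). Its other 3 tested probe sets differed by -0.65, -0.37 and -0.23 and did not pass (limma adjusted p = 0.0564, 0.242 and 0.599). The Tgfb2 call ended without knockout replicate 1 (-0.33, 0.141), on leaving out any array other than knockout replicate 2, with a filter at log2 6 (0.0646), with eBayes without a trend (0.124) or in its robust form (0.0503), with the replicate number as a block (0.15) and with median centring (0.153). Bmp4, a BMP ligand, read 331, 393 and 416 in knockout and 499.6, 497 and 579.5 in wild type, wholly lower in knockout, and its difference of -0.47 ± 0.15 did not pass (limma adjusted p = 0.0952).

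The probe sets of Bmp7, another BMP ligand, disagreed. The brighter one read 150.0, 146 and 129 in knockout and 169, 173 and 149 in wild type, overlapped, and differed by -0.21 ± 0.16 (SE, n = 3 in each group, limma adjusted p = 0.515). The dimmer one, 1418910_at, read 161, 193 and 181 in knockout and 114, 94.8 and 96.5 in wild type, wholly higher in knockout, and rose by 0.81 ± 0.17 (limma adjusted p = 0.0164, or 0.0257 when knockout replicate 1 is left out). That call ended with the replicate number as a block (0.0601) and on leaving out wild-type replicate 2 (0.0849) or 3 (0.0795), and the mean of both probe sets differed by 0.30 ± 0.13 and did not pass (0.232). Among the tested probe sets other than the brightest of these pathway and ligand genes, it was the 1 that passed.

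**Figure D4:**
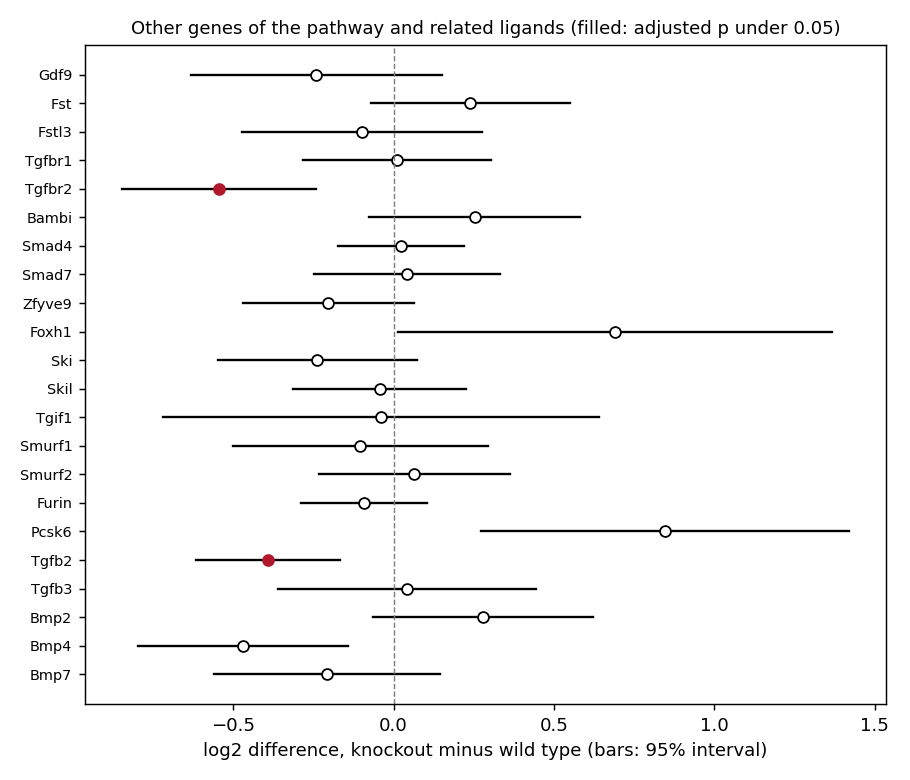
Log2 difference, knockout minus wild type, of the 17 other tested pathway genes and, below them, the 5 tested TGF-beta and BMP ligand genes, with limma's 95% intervals. Filled points are Tgfbr2 and Tgfb2, and Pcsk6 and Foxh1 are the open points farthest to the right.

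Markers of cell types that could carry these transcripts were read on the same arrays. Over all genes tested, 2.27% were called lower in knockout and 1.28% higher. Of 9 stroma genes 0 passed and 8 had a negative difference (median -0.25), and their summed intensity was 33552 to 36180 in knockout, against 38264 to 42722 in wild type. Of 6 tested endothelial genes, Flt1 and Tek fell and 4 had a negative difference (median -0.38), while Tie1 (0.06) and Esam (0.002) did not. Summed intensity over 8 endothelial genes was 1413 to 1694 in knockout, against 2073 to 2380.2 in wild type. The defining endothelial genes Pecam1 and Cdh5 lay under the filter level on every array. Of 8 macrophage genes, Ptprc and Mrc1 fell and all 8 had a negative difference (median -0.33), with sums of 5781 to 9039 in knockout, against 7948 to 9978 in wild type. Without knockout replicate 1, where 1.41% of all genes were called lower, Flt1 kept its call (limma adjusted p = 0.045). Those of Tek (0.112), Ptprc (0.0769) and Mrc1 (0.0847) ended, and the macrophage median was -0.09. The calls of Tek, Ptprc and Mrc1 also ended in other fits. Among these were the replicate block, median centring and leaving out any wild-type array (limma adjusted p = 0.0524 to 0.171). Ptprc read 13.7, 22.3 and 26.3 in knockout, near the filter level, against 49.9, 36.4 and 39.8 in wild type. The Flt1 call ended on leaving out wild-type replicate 3 (limma adjusted p = 0.0911). These stroma and endothelial sums were lower on every knockout array, as Inhba and Tgfbr3 were, and their part in the fall of these genes was not tested. In whole ovaries, fewer cells of a type and less RNA per cell cannot be told apart.

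Ovarian and neighbouring cell types were read in the same way, against 1.28% of all genes called higher and 2.27% called lower. Of 10 pregranulosa genes, Lhx9, a homeobox factor of the gonadal somatic cells, rose (0.55 ± 0.10, SE, n = 3 in each group, limma adjusted p = 0.00916) and the other 9 did not pass. The Lhx9 call ended with the replicate number as a block (0.0547) and without wild-type replicate 2 (0.0587). The median over the 10 genes was 0.24, while Foxl2 (-0.26) and Wnt4 (-0.08) had a negative difference. Sums were 17694 to 19458 in knockout, against 15943 to 16658 in wild type. Of 7 tested germ cell genes, 6 did not pass (median over the 7 was 0.27), with sums of 9778 to 14461 in knockout, against 9041 to 10466 in wild type. Dppa3 read 1182, 197 and 76.8 in knockout and 12.2, 12.1 and 18.8 in wild type. Wild-type replicates 1 and 2 lay under the filter level. The filter was thus met through the knockout arrays, where Dppa3 was high, and no test result is given for it. Of 5 steroidogenic genes 0 passed (median 0.37), with sums of 1348 to 1676 in knockout, against 1331 to 1406 in wild type. None of 5 tested Sertoli genes, 4 tested duct genes or 5 tested surface epithelium genes passed (medians -0.12, 0.20 and 0.33). Sertoli sums were 2926 to 3299 in knockout, against 2876 to 3144 in wild type, duct sums 2920.4 to 4139.95 in knockout, against 2958 to 3405 in wild type, and surface epithelium sums 6161 to 7682 in knockout, against 5927 to 6500.1 in wild type.

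**Figure D5:**
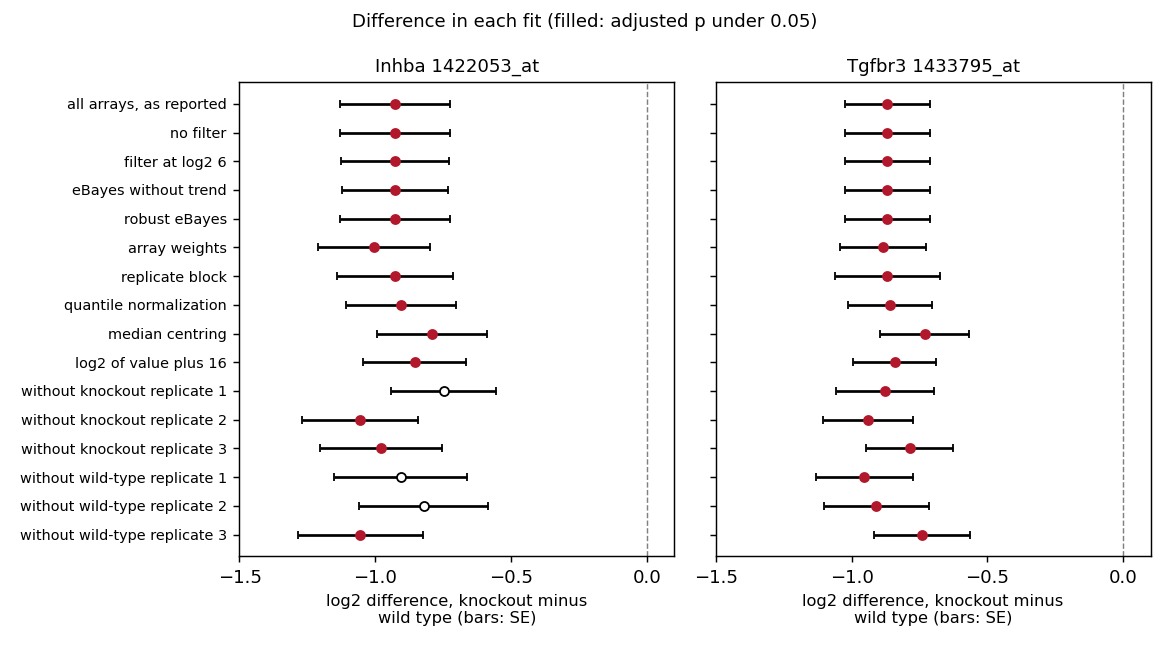
Log2 difference, knockout minus wild type, of Inhba (left) and Tgfbr3 (right) in the fit on all arrays and in 15 other fits, with limma's SE. Every value is negative, and the open points mark the 3 fits in which Inhba did not pass, each of which leaves out 1 array.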

How the data were processed

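The authors made the deposited intensities, which are linear, with GCRMA, per the submitters' processing notes. GCRMA corrects background by probe base composition, normalizes the arrays and gives 1 value per probe set. The version and settings are not given in the sources used here. Dim probe sets end close to a common floor, where differences have little meaning, and the number of arrays limits the precision. Of 45101 probe sets, 64 controls were left out, log2 was taken with no pseudocount, and 22040 that reached log2 4 on at least 3 of the 6 arrays were tested with limma 3.58.1 in R 4.3.3 (lmFit, eBayes with trend, 2-sided, no term besides genotype, Benjamini-Hochberg adjustment, threshold 0.05). A gene was counted through its brightest tested probe set. Gene symbols came from the platform annotation, checked by gene identifier against RefSeq (GRCm38.p6), and 0 changed. Promoter windows came from RefSeq for 7 of the 9 members.

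The members and lists were chosen with earlier results of these data known. All members are named, with Fst, Smad4, the genes past the threshold and those of smallest p in the list of other pathway genes (3) and of related ligands (2), by their brightest probe sets. Bmp7 was added after its values were seen, for a dimmer probe set that passed. The defining markers used to check the tissue and the marker genes that passed are named too. Of the listed genes, 3 are not analysed here. Alternatives covered the filter, eBayes, a replicate block, weights for arrays, quantile normalization, centring on medians, log2 of the value plus 16, the choice of probe set, a threshold of 0.10, and each array left out. The fit was tested on simulated data, and 0 pairs of arrays held identical values.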

Additional observations from a re-analysis of the deposited data

How the results depend on the processing

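Inhba and Tgfbr3 stayed lower in knockout in all fits tried. Tgfbr3 passed in all of them (differences -0.95 to -0.73, limma adjusted p 0.00511 to 0.0472), and Inhba in all but the 3 that left out knockout replicate 1 or wild-type replicate 1 or 2 (differences -1.06 to -0.75, 0.0138 to 0.107). Those 3 fits have fewer arrays. The number of member genes past the threshold was 2, and 1 to 2 on leaving out each array in turn. The 9 member probe sets that did not pass gave 133 values under the alternatives, of which 0 passed and 9, in 4 probe sets, had the opposite sign.

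Over all probe sets, 321 were higher and 1134 lower in knockout, so 22.1% of calls were higher. With no filter these counts were 1325 and 1957 (40.4% higher), with a filter at log2 6 they were 140 and 504, and a threshold of 0.10 gave 608 higher. Median centring moved the median of all probe sets by 0.14 and gave 871 higher and 809 lower (51.8% higher). It left Inhba at -0.79 and Tgfbr3 at -0.73, both past the threshold. Leaving out each array in turn gave 159 to 422 higher and 645 to 1119 lower. A stricter filter also leaves fewer probe sets, and an array left out leaves fewer arrays. The cause of these moves was not tested.

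With the replicate number as a block, 207 probe sets were higher and 836 lower, and Inhba and Tgfbr3 passed (limma adjusted p = 0.0355 and 0.0298). Deviations of same-numbered arrays from their group means correlated at -0.17, -0.25 and -0.17, and 0 arrays correlated best with their own number. Knockout replicate 1 correlated best with wild-type replicate 2 (0.33), knockout 2 with wild-type 3 (0.34) and knockout 3 with wild-type 1 (0.24). Whether these arrays share a litter or batch is not given in the sources used here and was not tested. Signal over background limits the 8 member probe sets near the floor, whose changes cannot be read.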

Other observations

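A probe set annotated to Acvr2a together with another gene, 1457451_at, was not counted as a member because its signal cannot be assigned to either gene. It read 21.2, 19.4 and 33.1 on the knockout arrays and 10.8, 12.5 and 10.2 on the wild-type arrays. The wild-type arrays all lay under the filter level, so it passed the filter only through the knockout arrays and no test result is given. The knockout mean on the log2 scale corresponds to 1.49 times that level. Both probe sets that name Acvr2a alone did not pass the test.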
